A study of Homo sapiens and Mus musculus with 56 samples.

Results

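The 3 U118 tumours of vehicle-treated mice, measured on mouse arrays, were set against 11 vehicle tumours of the other 4 glioblastoma lines, SF295, U87M2, DBM2 and U251M2. They were taken by line, treatment and array platform as the labels give them, 3 of the 14 mouse arrays with vehicle, of 28 mouse arrays and of 56 arrays in the series. The reference was the mean of the vehicle means of the other 4 lines, with each line weighted equally.

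The study asked how glioblastoma lines respond to V-4084, a compound that the labels describe as a selective inhibitor of the MET kinase. Cells of each human line were injected under the skin of the flank of nude mice, whose strain, sex and age the sources used here do not give. Nude mice lack a thymus and so most T cells, while their macrophages, natural killer cells and fibroblasts remain. Tumour-bearing mice received V-4084 at 30 mg per kg, or its vehicle (MC 400 at 0.5% and Tween 80 at 0.05%), and the treatment lasted 7 days. On mouse arrays the V-4084 groups held 3 arrays (2 for U251M2) and the vehicle groups held 3 arrays (2 for SF295). The human arrays are labelled as cultured cells of the same lines with DMSO, again for 7 days, with 3 vehicle arrays a line and 2 for SF295. The tissue field reads brain tumour although the tumours grew in the flank. Whether repeats within a group came from separate animals or cultures is not stated in the labels, so p-values measure the spread between arrays only.

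In such a xenograft the cancer cells are human, and the host supplies the stroma: macrophages, vessels, fibroblasts and any fat or muscle taken along at excision. Mouse probes are designed against mouse transcripts, but a human transcript with a similar sequence can bind some of them. Macrophages clear debris and carry lectin receptors for sugars on microbes and dying cells. Fibroblasts lay down collagens and the glycoproteins that organise them.

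The same-numbered human and mouse arrays of a line shared the level of skeletal muscle genes. Over 15 muscle genes measured on both platforms, U118 repeats 1, 2 and 3 averaged 6.70, 7.01 and 6.73 (log2) on human arrays and 8.73, 10.01 and 8.60 on mouse arrays. In each of the 5 lines the repeat with the highest muscle level on mouse arrays was also the highest on human arrays, which are labelled as cultured cells. The widest range was in DBM2, where repeats 1, 2 and 3 lay at 5.96, 6.07 and 6.58 on human arrays and at 6.32, 7.60 and 9.12 on mouse arrays. The human arrays are therefore not treated as independent of the mouse arrays, and values from them are given beside the mouse values without a test between platforms.

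Values are log2 intensities, so a difference of 1 is a 2-fold difference. Array medians on the mouse platform ran from 6.11 to 6.31, and the 3 U118 vehicle arrays correlated with each other across genes at r = 0.986 to 0.992. The array nearest to each of the 14 vehicle arrays belonged to its own line. A gene was called at an adjusted p under 0.05 (limma, Benjamini-Hochberg over 19938 genes). In bulk tumours fewer cells of a type and less RNA per cell cannot be told apart.

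U118 tumours differed from the mean of the other lines in 4846 of 19938 mouse genes (24.3%), of which 2170 (10.9%) were higher and 2676 (13.4%) were lower. Fat cell, macrophage and interferon-response genes were higher, and collagens, tenascin, thrombospondins and Hox genes were lower. Most differences were small: 195 of the higher and 50 of the lower genes differed at least 2-fold. The median over all genes was -0.07. The 3 U118 arrays lay above all 11 other arrays in 490 called genes (2.46%) and below all 11 in 492 (2.47%). Counted whether called or not, these were 508 genes (2.55%) and 554 genes (2.78%). U118 was higher than each of the 4 lines, called separately, in 210 genes (1.05%) and lower than each in 90 (0.451%). Without SF295 repeat 1 the first count was 68, and the second was 52 without SF295 repeat 2 and 51 without U118 repeat 1. The counts rest partly on U118 repeat 1: without it 1232 genes were higher and 1200 lower. Without U118 repeat 2, 1359 genes were lower.

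The distance from the 4 lines was uneven. Against SF295, 583 genes were higher in U118 (2.92%) and 814 lower (4.08%). Against U87M2 2735 genes were higher (13.7%) and 3442 lower (17.3%), against DBM2 2548 (12.8%) and 2768 (13.9%), and against U251M2 2538 (12.7%) and 4453 (22.3%). SF295 had only 2 vehicle arrays. When SF295 was left out of the mean, 3256 genes were higher and 5297 lower. When U251M2 was left out, 1564 genes were lower.

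**Figure D1:**
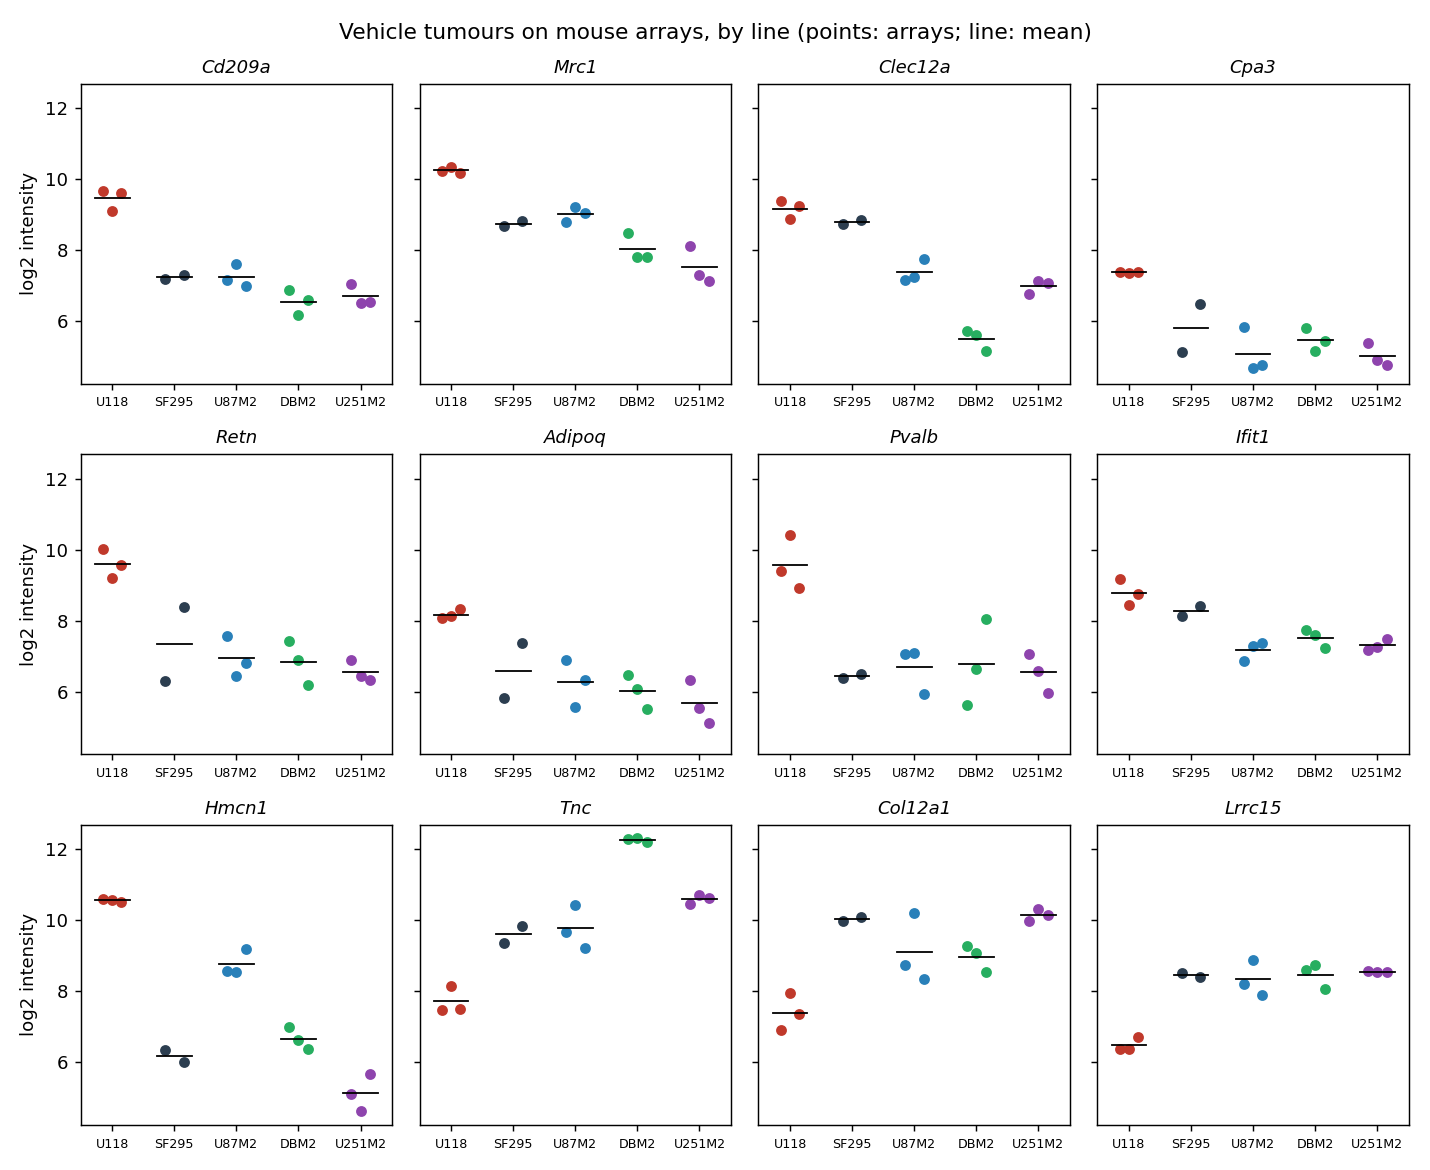
Log2 intensity of 12 mouse genes (vertical axis) in each vehicle tumour array, with U118 at the left of each panel, points for arrays and a bar for the mean of a line. The U118 arrays of Cd209a, Mrc1, Retn and Hmcn1 lie above all 11 others, and those of Tnc, Col12a1 and Lrrc15 lie below all 11. These genes were named among genes without overlap, so this follows from that choice.

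The 3 genes given as markers of these tumours were Hmcn1, Clec12a and Aqp1. They were picked with results of these data known, so their levels are described without a test. Hmcn1 encodes hemicentin-1, a large protein of the extracellular matrix. It lay at 10.60, 10.57 and 10.50 in the U118 arrays, and at 4.63 (lowest), 6.38 (median) and 9.18 (highest) in the 11 others, a 14.6-fold difference between the means. The U118 arrays stood together above all others, and U87M2 came next with a mean of 8.76, followed by DBM2 at 6.66, SF295 at 6.18 and U251M2 at 5.14. On human arrays HMCN1 averaged 10.55 in U118, 8.45 in U87M2, 6.43 in DBM2, 6.27 in SF295 and 5.59 in U251M2, the same order of lines as on mouse arrays. The difference was 3.87 on both platforms, and what human RNA contributed to the mouse Hmcn1 signal was not tested.

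Clec12a encodes an inhibitory lectin receptor of myeloid cells. Its U118 arrays lay at 9.37, 8.88 and 9.24, and the 11 others ran from 5.18 over a median of 7.12 to 8.85. The groups did not overlap, yet the SF295 mean of 8.79 was near that of U118, while U87M2 lay at 7.38, U251M2 at 6.99 and DBM2 at 5.51. Human CLEC12A lay between 4.07 and 4.18 in the means of all 5 lines, so the human arrays showed no such order. The difference on mouse arrays was 2.00 with vehicle and 2.05 with V-4084.

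Aqp1 encodes a water channel of vessels, red cells and some epithelia. It lay at 9.59, 9.78 and 9.49 in U118, and at 7.31, 7.51 and 9.68 (lowest, median and highest) in the other lines. The groups overlapped through U87M2, whose mean was 9.53, and SF295 lay at 8.49, U251M2 at 7.48 and DBM2 at 7.37. Human AQP1 had another order, with 10.37 in U118, 9.32 in U251M2 and 6.28 to 6.51 in the other 3 lines. Thus U251M2 was high on human and low on mouse arrays, and U87M2 the reverse.

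Fat cell genes formed the most uniform block. All 10 measured genes of the adipocyte list were higher in U118 and none was lower, with a median difference of 1.48 against -0.07 for all genes. For 9 of them the U118 arrays lay above all 11 others, and 9 were higher against each of the 4 lines. The mean level of the list was 8.35, 7.99 and 8.21 in U118 repeats 1, 2 and 3, and 6.32 (lowest), 6.69 (median) and 7.40 (highest) in the other arrays. The U118 arrays were high together, without overlap.

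Retn encodes resistin, a hormone secreted by fat cells in mice. It lay at 10.01, 9.20 and 9.56 in U118, and at 6.18, 6.82 and 8.38 (lowest, median and highest) in the others, a difference of 2.67 (SE 0.35, n = 3 and 11; adjusted p = 6.42e-06, limma). Adiponectin, the main fat cell hormone, is encoded by Adipoq, which lay at 8.08, 8.12 and 8.32 in U118 against 5.13, 6.07 and 7.37 in the others (2.04, SE 0.31; adjusted p = 3.91e-05, limma). Both genes were high in every U118 array. They were named among genes whose U118 arrays lay above all others, so their lack of overlap follows from that choice. Cd36, a fatty acid transporter also found on macrophages, differed by 2.29 (SE 0.30), and Fabp4, a fatty acid carrier of the same 2 cell types, by 1.72 (SE 0.32).

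Scd1, Car3 and Cyp2e1 were named as being among the 12 largest increases in genes whose U118 arrays lay above all others, so their lack of overlap follows from that choice. Scd1, which desaturates fatty acids, lay at 11.21, 10.89 and 11.08 in U118 against 5.79, 8.59 and 9.43 in the others (3.12, SE 0.60; adjusted p = 0.000562, limma). Car3, a carbonic anhydrase abundant in fat and muscle, differed by 2.97 (SE 0.66), and Cyp2e1, a cytochrome P450 of liver and fat, by 2.17 (SE 0.28). On human arrays 2 of 10 genes of the adipocyte list were higher and 1 lower in U118 (backgrounds of 16% and 17% of 18417 human genes), with a median of 0.03. RETN differed by -0.08, ADIPOQ by 0.05 and FABP4 by -0.62 there. CD36 and CYP2E1 were called higher in U118 on human arrays. CD36 lay at 4.23, 4.14 and 6.45 in U118 repeats 1, 2 and 3 there, so that repeat 3 stood apart.

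**Figure D2:**
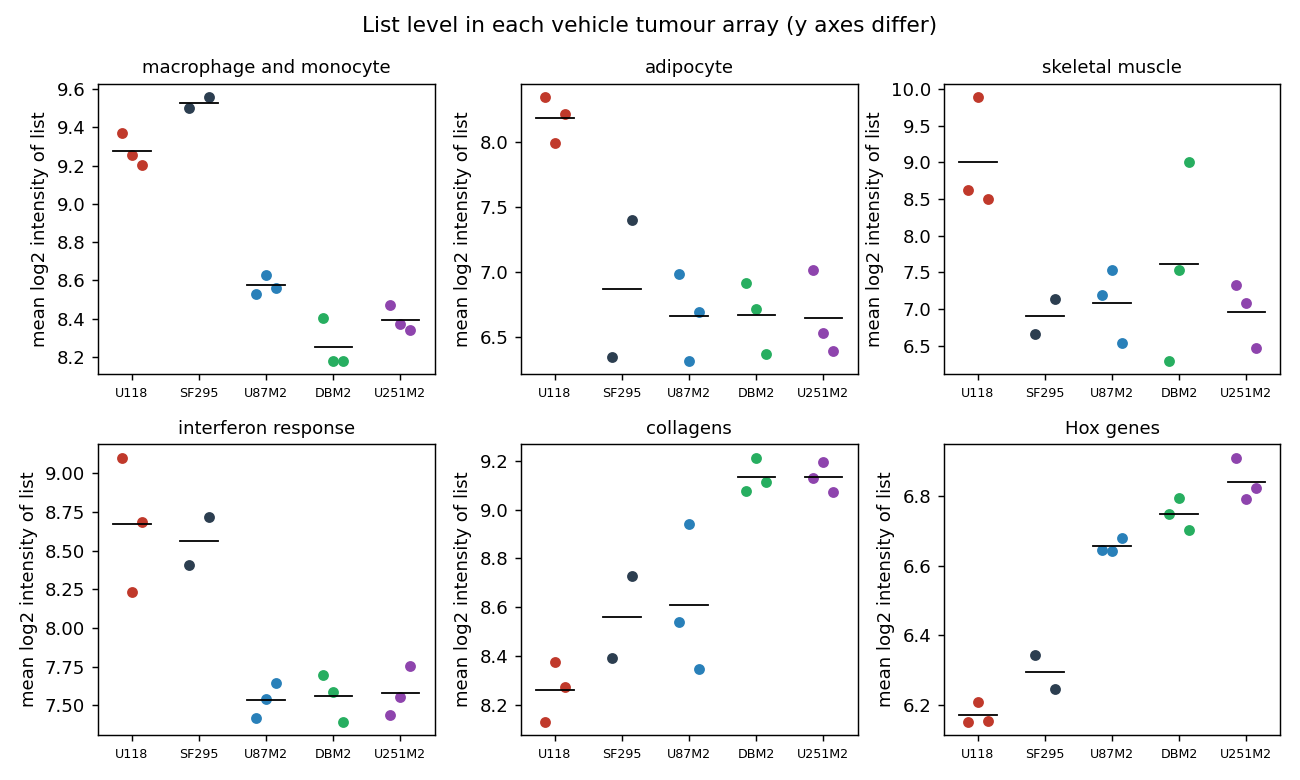
Mean log2 intensity of 6 gene lists (vertical axes, which differ between panels) in each vehicle tumour array by line, with a bar for the mean of a line. U118 stands alone for adipocyte genes, lies with SF295 for macrophage and interferon-response genes, and spreads widely for skeletal muscle genes.

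Macrophage genes were higher in U118 than in the mean of the other lines, but not than in SF295. Of 18 macrophage and monocyte genes 12 were higher and none lower, with a median of 0.54. Against SF295 2 were higher and 6 lower, with a median of -0.25, and against U87M2, DBM2 and U251M2 15, 14 and 15 were higher. The list averaged 9.37, 9.25 and 9.20 in the U118 arrays, 9.50 to 9.56 in SF295, and 8.18 to 8.63 in the other 9 arrays. U118 and SF295 were thus both high, and SF295 slightly higher. Adgre1, which encodes the macrophage surface protein F4/80, lay at 10.07, 9.93 and 9.94 in U118, against 8.16, 8.59 and 9.99 in the others, and overlapped with SF295 (mean 9.97).

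Mrc1, Cd209a and Cbr2 were higher in U118 than in SF295 as well. Mrc1, the mannose receptor, lay at 10.24, 10.35 and 10.16 in U118 against 7.13, 8.47 and 9.21 in the others (1.92, SE 0.19; adjusted p = 1.29e-07, limma). It was higher than in SF295 by 1.51 (adjusted p = 0.000651, limma). Cd209a, a lectin related to human DC-SIGN, lay at 9.67, 9.10 and 9.60 in U118 against 6.18, 7.00 and 7.60 (2.52, SE 0.18; adjusted p = 5.79e-10, limma). Cbr2, a carbonyl reductase, differed by 2.48 (SE 0.21) and was higher against each line, as was Cd209a. Retnla, a resistin-like protein of alternatively activated mouse macrophages, differed by 2.12 (SE 0.29), with a U118 mean of 7.68, no U118 array under 7.42 and no other array over 7.23. Retnla was not called against SF295 (adjusted p = 0.069, limma). Mrc1, Cd209a, Cbr2 and Retnla were named among genes whose U118 arrays lay above all others, so their lack of overlap follows from that choice.

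Of 17 inhibitory and C-type lectin receptors of myeloid cells, 9 were higher and none lower (median 0.44), and against SF295 1 was higher and 4 lower. The marker Clec12a, picked with results of these data known, is among the 9 higher. Clec10a, a galactose-type lectin, lay at 7.33, 7.33 and 7.45 in U118 against a highest value of 7.32 in the others. Clec4a1 differed by 1.30 (SE 0.16), with U118 at 7.61 to 8.40 and the SF295 mean at 8.14. Of 19 myeloid genes listed for rodent symbols, of which 1, Ms4a4a, shares its symbol with a gene on the human arrays, 15 were higher and none lower (median 0.66). Against SF295 their median was -0.23. This list shares genes with the lists of lectin receptors, MHC class II genes and chemokines. Lilrb4a, an inhibitory immunoglobulin-like receptor, differed by 1.12 (SE 0.12). Without U118 repeat 1, 10 of the 19 were higher.

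Complement genes, too, were mostly higher than in the mean of the other lines. Of 13 measured, 10 were higher and 1 lower, with a median of 0.54, while 1 was higher and 1 lower against SF295. Without SF295 repeat 1, and also without U118 repeat 3, 7 were higher. C1qa, C1qb and C1qc are also members of the macrophage list. C4b, a component of the classical pathway, lay at 8.96, 8.18 and 8.78 in U118 against 6.63, 7.48 and 8.03 in the others (1.12, SE 0.16; adjusted p = 2.08e-05, limma), and was higher against each line. C1qc, a chain of the recognition subunit C1q, differed by 0.80 (SE 0.13) but was highest in SF295 (mean 11.33, against 10.99 in U118).

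All 16 measured interferon-response genes were higher in U118, with a median of 0.77. Against SF295 none of the 16 was called in either direction by limma (2 higher and 1 lower at an unadjusted p under 0.05) and the median was 0.09, while 15 or 16 were higher against each of the other 3 lines. The list averaged 9.10, 8.24 and 8.69 in U118 repeats 1, 2 and 3, 8.41 to 8.72 in SF295 and 7.39 to 7.75 in the other lines. Repeat 1 was the highest array and repeat 2 lay below both SF295 arrays. Without repeat 1, 11 of 16 were higher.

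Ifit1 and Ifit3, which encode antiviral proteins that bind foreign RNA or associate with those that do, had some of the largest differences of this list. Ifit3 lay at 10.48, 9.52 and 10.10 in U118 against 7.68, 8.28 and 9.67 in the others (1.47, SE 0.15; adjusted p = 2.42e-07, limma). Ifit1 lay at 9.17, 8.45 and 8.74 against 6.87, 7.37 and 8.42 (1.21, SE 0.13; adjusted p = 3.61e-07, limma). In Ifit1 the lowest U118 array lay just above the highest other array, and in Ifit3 the groups overlapped. Ifit1 was the only 1 of the 16 genes without overlap. Gbp4, a guanylate-binding protein induced by interferon gamma and not in the list, was higher against each line (1.48, SE 0.19). It was named among genes whose U118 arrays lay above all others. On human arrays none of 12 interferon-response genes was higher and 5 were lower in U118, with a median of -0.23.

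Genes of antigen presentation and lymphocytes were uneven among the 3 U118 arrays. Of 13 dendritic cell and MHC class II genes 7 were higher and 2 lower, and 3 were higher without repeat 1 and 4 without repeat 3. Against SF295 1 was higher and 1 lower (median -0.16), and against U251M2 3 were higher and 2 lower (median 0.23). Against U87M2 and DBM2 9 and 8 were higher, with 1 lower in each case. H2-Aa, an MHC class II chain, lay at 10.93, 9.73 and 10.76 in U118 against 8.32, 8.85 and 10.74 in the others. Xcr1, a chemokine receptor of cross-presenting dendritic cells, lay at 7.34, 6.50 and 7.27 against 5.87, 6.23 and 6.42, and was higher against each line. Repeat 2 was the lowest U118 array for both genes.

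Of 13 natural killer and T cell genes 5 were higher and none lower, and 3 were higher without U118 repeat 1. Against SF295 none was called by limma, and against U251M2 4 were higher and 3 lower. Against U87M2 5 were higher and 1 lower, and against DBM2 6 were higher and none lower. Nkg7, a granule protein of cytotoxic cells, lay at 8.17, 6.59 and 7.60 in U118 against 5.77, 6.47 and 6.96, so that repeat 2 lay within the range of the other lines. Granzymes D and E, which are not in that list, went the other way. They were among the 10 largest decreases in genes whose U118 arrays lay below all others. Their direction and lack of overlap follow from that choice. Gzmd lay at 3.43, 4.04 and 3.94 in U118 against 4.07, 6.34 and 7.55 (-2.10, SE 0.32; adjusted p = 3.54e-05, limma), and Gzme differed by -1.84 (SE 0.28). Of 21 chemokines 9 were higher and 2 lower. Against SF295 none was higher and 5 were lower, while 10 were higher against each of the other 3 lines. Ccl5, which attracts T cells and monocytes, differed by 1.57 (SE 0.20), and Cxcl14, a chemokine of epithelia and fibroblasts, by -0.85 (SE 0.14).

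Mast cell proteases were higher in all 3 U118 arrays alike. Cpa3, carboxypeptidase A3, lay at 7.38, 7.36 and 7.40 against 4.68, 5.17 and 6.48 in the others (2.02, SE 0.25; adjusted p = 2.28e-06, limma). Mcpt4, a chymase, lay at 6.64, 6.98 and 6.74 against 4.92, 5.48 and 6.31 (1.28, SE 0.18). Tpsb2, a tryptase, differed by 0.46 (SE 0.09), and Kit, the receptor mast cells need, by 0.41 (SE 0.10). The first 3 genes did not overlap between groups, which for Cpa3 follows from the rule that named it. The U118 arrays of Kit (6.90 to 7.44) overlapped with the highest other array (7.13). Without U118 repeat 3 Kit was no longer called. In all 5 of 12 mast cell and eosinophil genes were higher and none lower. Of the neutrophil list, with 12 genes, Mmp9 alone was called, as lower (-1.06, SE 0.22), and without DBM2, where it was highest, its call was lost (adjusted p = 0.109, limma).

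**Figure D3:**
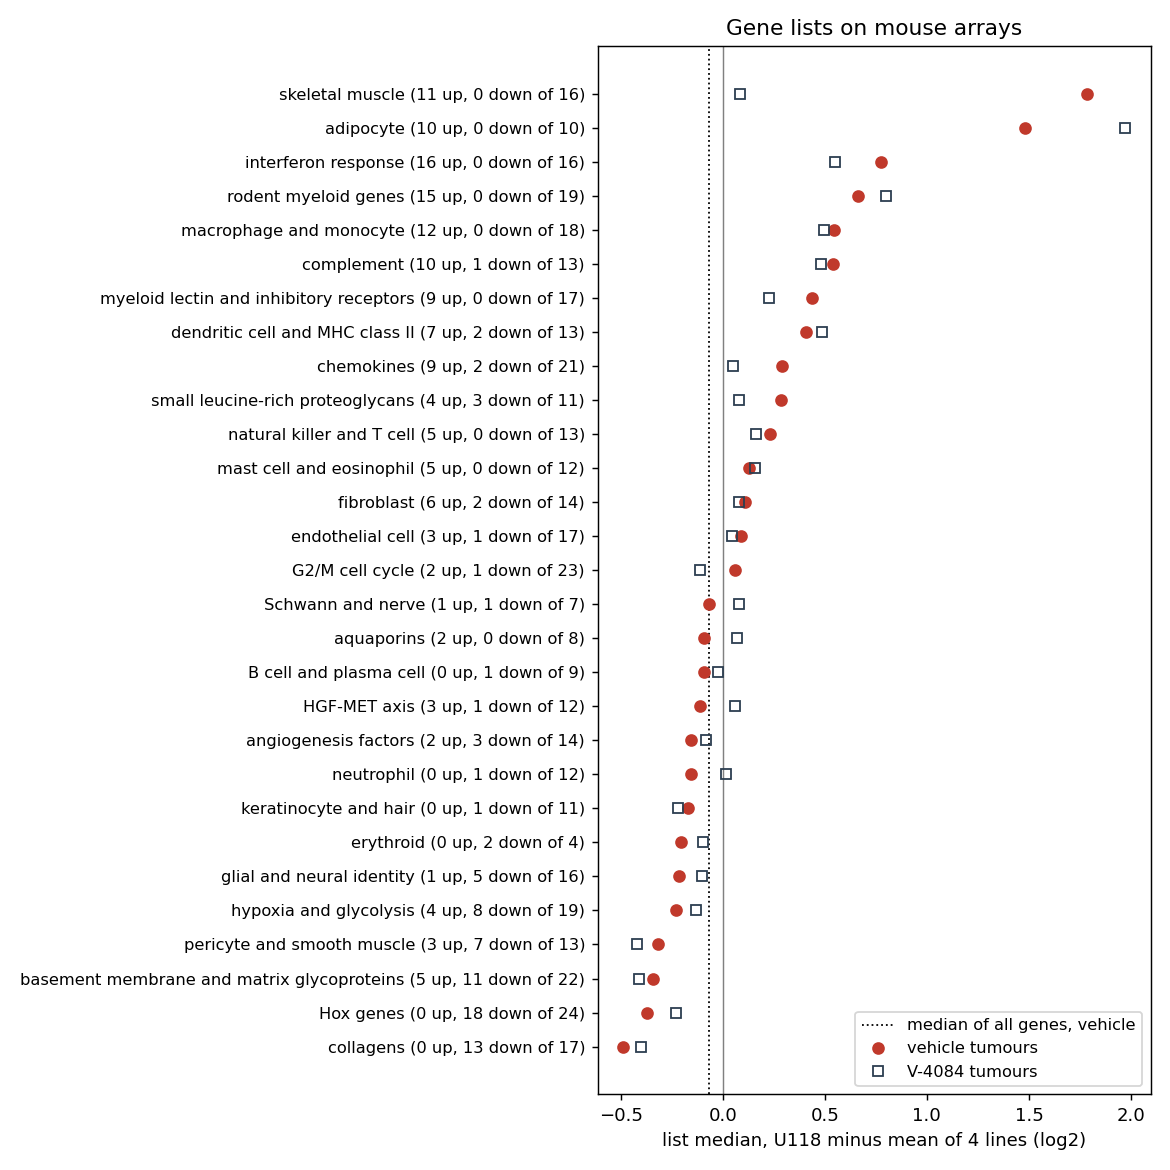
Median log2 difference, U118 minus the mean of the 4 other lines, for each of 29 gene lists (one row each) in vehicle tumours (filled circles) and V-4084 tumours (open squares), with the number of genes higher and lower with vehicle in the row label. Adipocyte and interferon-response lists lie right of 0 and collagens and Hox genes left of 0 with both treatments, while skeletal muscle lies at 1.79 with vehicle and 0.09 with V-4084.

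Collagen genes were lower in U118 tumours than in the mean of the other lines. Of 17 collagen genes 13 were lower and none higher, with a median of -0.49. Against DBM2 14 were lower and against U251M2 15, and against U87M2 and SF295 9 and 3. The list averaged 8.13, 8.38 and 8.27 in U118 and 8.35 (lowest), 9.07 (median) and 9.21 (highest) in the others, so that the highest U118 array overlapped with the lowest U87M2 array. Without U118 repeat 1, 8 of the 17 were lower.

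Col12a1 encodes a collagen that decorates fibrils. It lay at 6.90, 7.94 and 7.35 in U118 against 8.36, 9.98 and 10.31 in the others (-2.16, SE 0.24; adjusted p = 7.1e-07, limma). Col8a1, a short-chain collagen of vessel walls, lay at 7.59, 8.35 and 7.69 against 8.57, 9.79 and 10.27 (-1.76, SE 0.19). Both were among the 10 largest decreases in genes whose U118 arrays lay below all others, so their lack of overlap follows from that choice. Both were also lower against each line. Col6a3 and Col6a1, chains of the beaded-filament collagen VI, differed by -0.99 (SE 0.14) and -0.87 (SE 0.12).

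Of 22 basement membrane and matrix glycoprotein genes 11 were lower and 5 higher (median -0.34). The marker Hmcn1, picked with results of these data known, is among the 5 higher and lay furthest in that direction. Against SF295 the balance turned, with 6 higher and 4 lower (median -0.04), while 8, 12 and 10 were lower against U87M2, DBM2 and U251M2. Without U118 repeat 1, and also without repeat 3, 7 of the 22 were lower. Tnc, tenascin-C, a glycoprotein of wounds and tumour stroma, lay at 7.46, 8.16 and 7.51 in U118 against 9.21, 10.47 and 12.30 in the others (-2.85, SE 0.16; adjusted p = 1.61e-11, limma). It was 7.19-fold lower than the mean of the other lines, which itself spanned a range led by DBM2 at 12.26. Thrombospondin-2 (Thbs2) lay at 7.99, 8.45 and 8.17 against 9.22, 10.36 and 10.85 (-2.06, SE 0.20), and thrombospondin-1 (Thbs1) differed by -1.36 (SE 0.19). Both were lower against each line. Tnc, Thbs2 and Thbs1 were named among genes whose U118 arrays lay below all others, so their lack of overlap follows from that choice.

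Lrrc15, Timp1 and Mmp13 were among the 10 largest decreases in genes whose U118 arrays lay below all others. Lrrc15, a membrane protein of fibroblasts in tumours, lay at 6.39, 6.38 and 6.72 against 7.91, 8.54 and 8.89 (-1.95, SE 0.16; adjusted p = 1.02e-08, limma). Timp1, an inhibitor of matrix proteases, lay at 7.46, 7.72 and 7.46 against 8.53, 9.05 and 10.46 (-1.73, SE 0.16). Mmp13, a collagenase, differed by -2.04 (SE 0.44). Pdgfrb, the PDGF receptor of pericytes and fibroblasts, differed by -0.90 (SE 0.13) with U118 arrays at 8.30 to 8.51 and the lowest other array, of U87M2, at 8.42. In the pericyte and smooth muscle list 7 of 13 genes were lower and 3 higher, against 4 lower without U118 repeat 1 and 1 higher without repeat 3.

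Human arrays gave the opposite direction for several of these genes. Of 17 collagens 10 were higher and 3 lower in U118 on human arrays, with a median of 0.67, and of 21 basement membrane and matrix glycoproteins 12 were higher and 2 lower. Lrrc15 differed by 3.69 there, Thbs2 by 1.56, Col12a1 by 1.25, Tnc by 0.74, Pdgfrb by 2.06 and Timp1 by 0.02. The human U118 means were 11.52 for LRRC15 and 12.48 for TNC. U118 was not the highest line for every such gene: human COL12A1 lay at 10.39 to 10.53 in U118 and at 10.59 to 10.65 in U251M2. What human RNA contributed to the mouse signals of these genes was not tested.

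Fibroblast genes did not move as one. Of 14 measured 6 were higher and 2 lower, with a median of 0.11, and without U118 repeat 2 the counts were 2 and 0. Of 11 small leucine-rich proteoglycans, which bind and space collagen fibrils, 4 were higher and 3 lower (median 0.29), and without U118 repeat 2 and without repeat 3, 2 were higher. Dcn, decorin, a proteoglycan that binds collagen, lay at 10.79, 10.72 and 10.81 in U118 against 8.54, 9.81 and 10.44 (1.18, SE 0.29; adjusted p = 0.00469, limma). Dermatopontin, encoded by Dpt, lay at 9.91, 10.03 and 9.89 against 6.94, 8.12 and 9.55 (1.77, SE 0.39; adjusted p = 0.00193, limma). Both genes were above every other array, and both were also higher in U118 on human arrays, by 5.15 and 2.24. With V-4084 they differed by 0.82 (adjusted p = 0.065, limma) and 1.16 (adjusted p = 0.0501, limma). What human RNA contributed to the mouse signals of Dcn and Dpt was not tested.

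Vessel genes differed little. Of 17 endothelial genes 3 were higher and 1 lower (median 0.09; 5 higher without U118 repeat 3, and a median of -0.02 without U118 repeat 2), with 12 higher against DBM2 and 9 lower against U87M2. Tek, the angiopoietin receptor, lay at 8.07, 8.15 and 7.78 in U118 against 7.12, 7.44 and 7.75 (0.57, SE 0.09; adjusted p = 6.69e-05, limma), and was higher against each line. Lyve1, a hyaluronan receptor of lymphatic vessels and of some macrophages, differed by 1.46 (SE 0.25), while Prox1, the transcription factor of lymphatic endothelium, differed by -0.55 (SE 0.15). The call for Prox1 was lost without U118 repeat 2 and without DBM2. Vegfa, the main growth factor of vessels, was lower (-0.52, SE 0.09).

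Hox genes, which record the position of a cell along the body axis, were lower in U118 than in the mean of the other lines. Of 24 measured 18 were lower and none higher, with a median of -0.37. Against SF295 4 were lower and 2 higher, with a median of -0.08, and against U87M2, DBM2 and U251M2 15, 18 and 19 were lower. The list averaged 6.15 to 6.21 in U118, 6.25 to 6.34 in SF295 and 6.64 to 6.91 in the other lines, so low levels were shared with SF295. Hoxd10 lay at 6.75, 6.55 and 6.28 in U118 against 7.66, 9.22 and 9.99 in the others (-2.46, SE 0.10; adjusted p = 3.61e-15, limma). Hoxd10 was named among genes whose U118 arrays lay below all others, so its lack of overlap follows from that choice. U251M2 was highest at 9.90, followed by U87M2 at 9.44, DBM2 at 8.90 and SF295 at 7.72. On human arrays HOXD10 averaged 5.10 in U118, 7.65 in SF295, 8.97 in DBM2, 9.44 in U87M2 and 10.08 in U251M2, the same order, and 13 of 15 Hox genes were lower. The part of human RNA in the mouse Hoxd10 signal was not tested.

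Met and its ligand Hgf behaved differently. Met, the receptor kinase that V-4084 inhibits, lay at 6.79, 6.91 and 7.02 in U118 against 5.81, 6.45 and 6.73 in the others (0.53, SE 0.07; adjusted p = 3.17e-06, limma), without overlap and higher against each line. Human MET differed by 0.52, and what human RNA contributed to the mouse Met signal was not tested. Hgf lay at 6.99, 6.80 and 6.96 in U118 against 6.73, 7.03 and 7.42 (-0.14, SE 0.10; adjusted p = 0.317, limma), although human HGF averaged 10.20 in U118, 10.03 in SF295, 11.46 in U87M2 and 5.37 or less in DBM2 and U251M2. Mouse Hgf thus stayed between 6.91 and 7.36 in the means of the 4 other lines, while the human gene ranged widely. Of 12 genes of the HGF-MET axis 3 were higher and 1, Plat, the plasminogen activator of tissue, was lower (-0.74, SE 0.11).

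Across the 14333 genes that share a symbol on both platforms, the mouse difference and the human difference correlated at r = 0.232 (Pearson) and 0.270 (Spearman). This is a description across genes, which are not independent, and the arrays share lines and repeats. Of 2300 mouse genes whose human gene was higher in U118, 27.3% were higher and 7.00% lower. Of 2744 whose human gene was lower, 11.3% were higher and 28.1% lower. Of 9289 whose human gene was not called, 9.56% were higher and 12.4% lower, and of 5605 without a human gene of the same symbol, 6.14% were higher and 10.6% lower. Mouse calls were therefore more frequent in the direction of the human call. Of the 2170 higher genes 888 had a human gene that was not called. The share of higher genes in that class (9.56%) was under that of all genes (10.9%).

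The largest human differences show the limits of that relation. Of 37 genes with a human difference of at least 3, 18 were higher and 5 lower on mouse arrays, with a median mouse difference of 0.32. The 5 lower ones, named after their values were seen, were Lrrc15, Aspn, Tmem119, Ccn4 and Cemip. Of 21 genes with a human difference under -3, 10 were lower and 3 higher, with a median of -0.23, and the 3 higher ones, also named afterwards, were Tnfsf10, Ccl2 and Sulf2. Aspn, asporin, lay at 7.47, 8.74 and 7.76 in U118 against 7.47, 9.27 and 10.05 in the others, with a human difference of 4.41, and its call on mouse arrays was lost without U118 repeat 1, U118 repeat 3 or the DBM2 line.

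**Figure D4:**
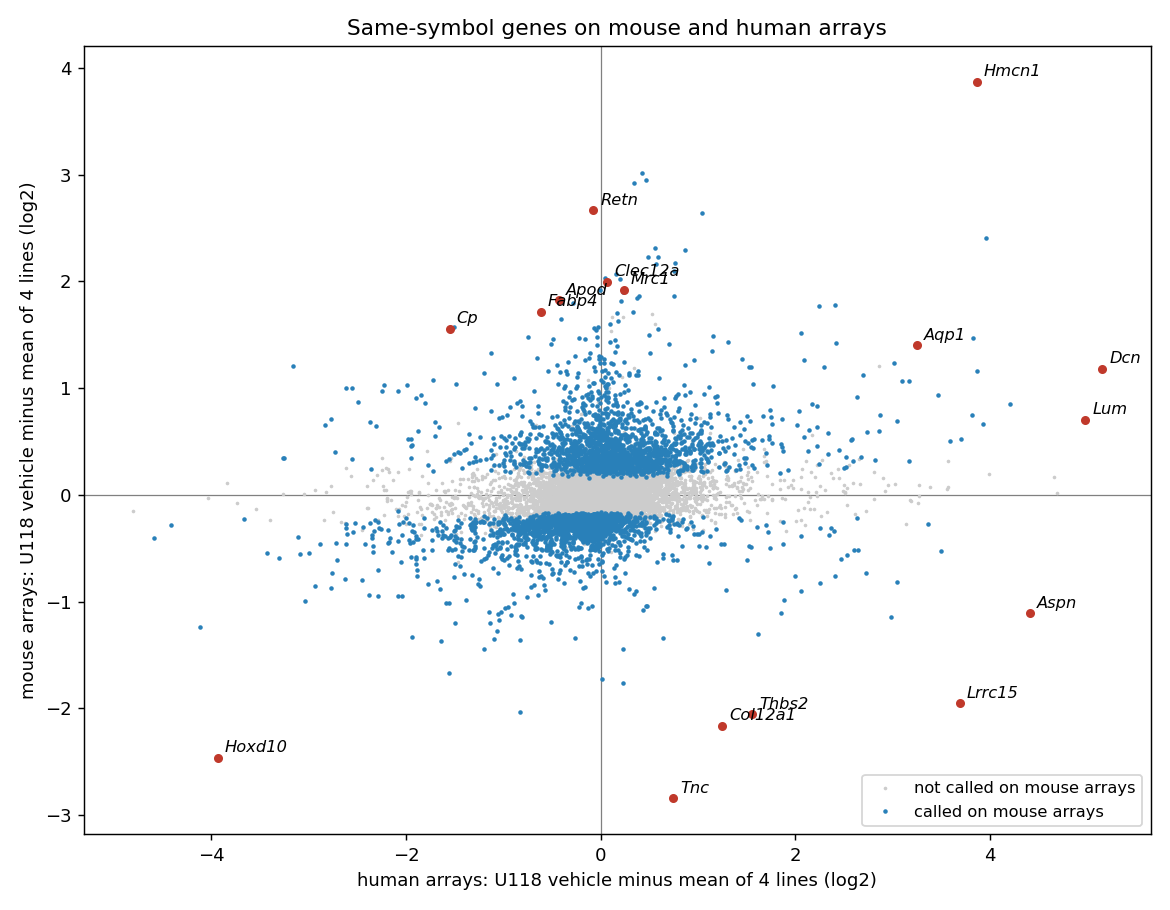
Log2 difference of U118 from the mean of the 4 other lines on human arrays (horizontal axis) and on mouse arrays (vertical axis), one point per gene symbol shared by the platforms, with genes called on mouse arrays in blue. Hmcn1 and Hoxd10 lie near the diagonal, Retn, Mrc1 and Clec12a lie high near 0 on the horizontal axis, and Tnc, Col12a1, Thbs2, Lrrc15 and Aspn lie low at positive human values.

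Some increases ran against the human gene. Apod, Cp, Fabp4 and Gbp4 were named among genes whose U118 arrays lay above all others and whose human gene was called lower. Their lack of overlap and their opposite directions follow from that choice. Apod, a lipid-binding protein, lay at 10.12, 9.27 and 10.04 in U118 against 7.22, 7.86 and 8.99 (1.82, SE 0.17; adjusted p = 6.35e-08, limma), with a human difference of -0.43. Cp, ceruloplasmin, a copper-carrying oxidase, lay at 8.54, 7.78 and 8.51 against 6.02, 6.64 and 7.38 (1.56, SE 0.15), with a human difference of -1.55. For Fabp4 and Gbp4 the human differences were -0.62 and -0.74. These human differences hold against the mean of the 4 lines and not against each. The human means of APOD were 6.47 in U118, 9.12 in SF295, 6.48 in DBM2, 6.05 in U251M2 and 5.92 in U87M2. CP averaged 4.64 in U118, 9.86 in SF295, 6.28 in U251M2, 4.37 in DBM2 and 4.24 in U87M2. For each of the 4 genes the human U118 mean lay above that of 2 other lines, and SF295 was the highest line for APOD, CP and GBP4 and the lowest for FABP4.

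Skeletal muscle genes were high in the U118 vehicle tumours but depended on single arrays. Of 16 measured 11 were higher and none lower, with a median of 1.79. Without U118 repeat 2, 1 of 16 was higher, and without repeat 1, 5 were. The list averaged 8.63, 9.89 and 8.50 in U118 repeats 1, 2 and 3, against 6.30 (lowest), 7.14 (median) and 9.01 (highest) in the others, the highest being DBM2 repeat 3. Pvalb, parvalbumin, a calcium buffer of fast muscle fibres, lay at 9.39, 10.42 and 8.91 in U118 against 5.65, 6.59 and 8.04 (2.95, SE 0.73; adjusted p = 0.00503, limma). Casq1, which stores calcium in muscle, and Eno3, the muscle enolase, differed by 2.23 (SE 0.58) and 2.16 (SE 0.59), and both calls were lost without repeat 2. Pvalb, Casq1 and Eno3 were named among genes whose U118 arrays lay above all others, so their lack of overlap follows from that choice.

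With V-4084 none of the 16 muscle genes was called in either direction by limma, nor had any an unadjusted p under 0.05, and the list median was 0.09. The list ranged from 6.19 to 9.52 among the 3 U118 tumours with V-4084 and from 6.50 to 9.84 among those of DBM2. The U118 arrays with V-4084 thus overlapped with those of other lines. Of 15 muscle genes on human arrays 8 were higher and none lower in U118, TTN, which encodes titin, by 3.96. As given above, the repeat with the highest muscle level was the same on both platforms in each line. What mouse RNA contributed to these human-array values was not tested.

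Tumours treated with V-4084 gave a second set of arrays for the comparison of U118 with the other lines. In them 1315 genes were higher in U118 (6.6%) and 1305 lower (6.55%). Of the 2170 genes higher with vehicle, 2082 (95.9%) had the same sign with V-4084 and 1035 were called higher there. Of the 2676 lower with vehicle, 2435 (91.0%) had the same sign and 859 were called lower, against 73.0% with the same sign over all genes. The called genes were picked by their vehicle difference, so part of the distance from that share follows from the choice. One gene was called in opposite directions, Taar7b, a trace amine receptor named after its values were seen (-0.26 with vehicle, 0.28 with V-4084). Without U118 V-4084 repeat 3, 824 genes were lower in U118, and without repeat 1, 858.

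The median of 24 of 29 gene lists had the same sign in the V-4084 tumours. The other 5 medians lay near 0 with both treatments: neutrophil genes (-0.16 with vehicle, 0.01 with V-4084), aquaporins (-0.09 and 0.07), Schwann and nerve genes (-0.07 and 0.08), G2/M genes (0.06 and -0.11) and the HGF-MET axis (-0.11 and 0.06). Fibroblast genes gave 1 higher and 4 lower of 14 with V-4084, against 6 and 2 with vehicle, small leucine-rich proteoglycans gave 3 lower and none higher of 11, and no muscle gene was called.

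All 10 adipocyte genes were higher (median 1.97), as were 13 of 18 macrophage and 13 of 16 interferon-response genes (medians 0.50 and 0.55), and 13 of 17 collagens and 12 of 24 Hox genes were lower. Retn differed by 3.39, Cd209a by 2.23, Mrc1 by 1.75 and Ifit1 by 0.71, while Tnc differed by -3.07, Col12a1 by -2.58 and Lrrc15 by -2.12. A direct test of the vehicle difference against the V-4084 difference called 1 gene of 19938 (0.00502%; 1590 at an unadjusted p under 0.05, limma). That gene, Fam13a, named after its values were seen, was higher in U118 by 0.71 with vehicle and by 1.72 with V-4084 (difference -1.01, SE 0.16; adjusted p = 0.0304, limma).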

How the data were processed

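RNA was measured on Affymetrix whole-transcript arrays. The values are log2 intensities that the authors deposited after RMA and Partek, per the submitters' processing notes, with versions not given in the sources used here. They were used as deposited. Of 35556 mouse probe sets, 21789 name 1 gene in the platform annotation. The rest, 1621 naming several genes and 12146 naming none, were left out, and the brightest probe set on average stood for a gene, which gave 19938 mouse and 18417 human genes. Signal over background was not analysed, and precision is set by how many arrays a group holds.

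On each platform limma 3.58.1 (R 4.3.3) fitted the means of 10 groups (28 arrays, 18 residual degrees of freedom). Each contrast was U118 minus the mean of the other 4 line means. Tests were two-sided, with Benjamini-Hochberg adjustment of p-values over all genes of a platform. Errors beside differences are standard errors from limma. The procedure was tested on simulated data. Platforms were matched by symbol. The titles of 3 human V-4084 arrays read DBM2 while other fields read SF295; they were placed by title and enter only the pooled spread of the human fit.

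Members, gene lists and rules were chosen with earlier results of these data known. Some genes are members of several lists, so counts from different lists are not independent. Named genes are the markers, Hgf and Met, the 12 largest increases among called genes whose U118 arrays lay above all others and the 10 largest decreases among those below all others, the 5 largest increases and 4 largest decreases in each class of human call, and up to 4 members of each list. Predicted genes, pseudogenes, olfactory receptors and genes of small RNAs were left unnamed. Alternatives were another normalization, variance model, probe-set rule or weighting, a filter on dim genes, a replicate block, arrays of 1 treatment only, and leaving out a line or an array. Same-numbered arrays of different groups deviated from their group means with a mean correlation of -0.03 over 26 pairs, 6 of them over 0.1, so the repeat numbers were not taken as pairs.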

Additional observations from a re-analysis of the deposited data

Results flagged for a closer look

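Fam13a differed between the treatments in how far U118 lay above the other lines. The interaction test of limma gave -1.01 (SE 0.16; adjusted p = 0.0304) for the vehicle difference of 0.71 minus the V-4084 difference of 1.72. In both treatments the U118 arrays lay above all arrays of the other lines. It was the only one of 19938 genes called by that test.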

How the results depend on the processing

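No named gene reversed its sign under any alternative run. Genes higher and lower with vehicle numbered 2170 and 2676, and 3256 and 5297 without SF295, and 1564 genes were lower without U251M2. Leaving out 1 array gave 1232 to 2489 higher and 1200 to 3240 lower genes. With V-4084, 1982 genes were higher and 2077 lower without SF295, and leaving out 1 array gave 883 to 1362 higher and 824 to 1395 lower genes. Against each of the 4 lines, 210 genes were higher and 90 lower. Without SF295 these counts were 1397 and 1268, and 142 genes were lower without U87M2. Leaving out 1 array gave 68 to 217 higher and 51 to 91 lower genes, with the fewest higher without SF295 repeat 1. On human arrays leaving out 1 array gave 2371 to 2927 higher and 2536 to 3116 lower genes. The cause of these shifts was not tested. With the repeat number as a replicate block, 2175 genes were higher and 2746 lower with vehicle, 1313 and 1295 with V-4084, and 221 and 88 against each line. Among named genes the block ended 2 calls, Krt71 and Aplnr. All settings other than leaving out an array, the block included, ended 50 calls of named genes in 1269 cases, and leaving out 1 array ended 102 in 1624. Among list medians, 6 of 406 moved by more than the spread of the U118 arrays on leaving out an array and 32 of 319 under the other settings. Signs turned for endothelial genes (-0.02 without U118 repeat 2 and with quantile normalization, -0.03 without DBM2), Schwann and nerve genes (0.07 without U118 repeat 2), aquaporins (0.21 without dim genes), angiogenesis factors (0.07 without U87M2) and G2/M genes (-0.04 without DBM2). Only 2 SF295 vehicle arrays stand behind the comparison with the nearest line.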

Other observations

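Hypoxia, neural and prostaglandin genes were also measured in the U118 vehicle tumours. Of 19 hypoxia and glycolysis genes 8 were lower and 4 higher, with a median of -0.23. Slc2a1, the glucose transporter GLUT1, lay at 8.20, 8.22 and 8.07 in U118 against 8.46 (lowest), 8.81 (median) and 9.29 (highest) in the other lines (-0.65, SE 0.13; adjusted p = 0.000605, limma). On human arrays 12 of 18 genes of that list were lower and 1 higher in U118. Aldoa, an aldolase of glycolysis that muscle uses in quantity, was higher (0.82, SE 0.29), and its call was lost without U118 repeat 1 or 2, SF295 repeat 1, DBM2 repeat 1 or 2, or U87M2 repeat 3. Without U118 repeat 1, 1 gene of the list was higher.

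Of 16 glial and neural identity genes 5 were lower and 1 higher, against 13.4% and 10.9% of all genes. Without U118 repeat 1, 2 were lower, against 1200 of all 19938 genes. Against SF295 1 was lower and 1 higher (median 0.05), and against U87M2, DBM2 and U251M2 6, 3 and 10 were lower. The list averaged 5.76 to 5.91 in the U118 arrays, under the platform median of 6.23. Sox2, a transcription factor of neural progenitors, lay at 4.92, 4.65 and 4.78 in U118 against 5.04, 5.38 and 6.11 (-0.70, SE 0.09; adjusted p = 7.57e-06, limma), with a human difference of -2.29. Nes, nestin, an intermediate filament of progenitors and of growing vessels, differed by -1.20 (SE 0.16), with a human difference of -1.50. Pmp22, a protein of myelin and of fibroblasts, lay at 10.73, 10.90 and 10.46 in U118 against 8.68, 9.39 and 9.71 (1.38, SE 0.14; adjusted p = 1.29e-07, limma). Ptgs2, which makes prostaglandins, lay at 5.87, 6.56 and 5.67 against 6.83, 7.16 and 9.05 (-1.45, SE 0.18; adjusted p = 1.98e-06, limma), and was lower against each line. Ptgs2 was named among genes whose U118 arrays lay below all others, so its lack of overlap follows from that choice.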
